A study of Homo sapiens with 11 samples.

Results

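The genes described here are 8 receptors and ligands of peptide hormones, out of 28152 gene symbols in the count table: the natriuretic peptide receptors NPR3, NPR1 and NPR2, the natriuretic peptides NPPB and NPPC, and the glucagon-family receptors GLP2R, GLP1R and GIPR. They were taken by symbol, and the pair that leads the set, NPR3 and GLP2R, was selected on its counts, because its expression differed between treated and vehicle tumours in these libraries. The treatment comparison therefore describes these 8 genes and does not test them.

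RNA was sequenced from xenografts grown in the mammary fat pad of female athymic nude mice from BT-474, a line of human breast cancer cells labelled HR+/Her2+. Every animal carried a slow-release pellet of 0.72 mg of estradiol made for 90 days, and tumours were enrolled above 95 cubic millimetres. The 6 vehicle animals received mannitol in water under the skin every 4 days. The 5 evexomostat animals received evexomostat, an inhibitor of the methionine aminopeptidase MetAP2, at 12 mpk on the same schedule. All tumours are labelled day 33, and 1 library was made per tumour. The tumours are 1 cell line in an immunodeficient mouse host, and no source used here says how mouse reads were handled.

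Natriuretic peptides are small ring-shaped hormones. NPR1, the receptor of the atrial and B-type peptides, and NPR2, the receptor of the C-type peptide, are membrane guanylyl cyclases that make cyclic GMP when the hormone binds. NPR3 binds all of these peptides but has no cyclase domain; it takes them into the cell for breakdown, which gives it the name clearance receptor, and it can couple to inhibitory G proteins. GLP2R, GLP1R and GIPR are class B G protein-coupled receptors that raise cyclic AMP in response to gut hormones, and GLP2R is best known for the growth of the intestinal lining.

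Library totals ranged from 22808033 to 39249329 counts, so that 3 counts, the limit that a count of 0 allows, stood for 0.0764 to 0.132 RPM (counts scaled by the library total), a limit that covers counting error only. In vehicle replicate 001 the top 100 genes held 23.9% of the counts, against 16.2% to 17.9% elsewhere, and results are given with and without it where that matters. Transcripts that define the labelled line were scarce: ERBB2 averaged 53.7 RPM, GATA3 6.50, EPCAM 3.03, ESR1 0.285 and PGR 0.0655, while KRT8 averaged 331.6. These levels go against the HR+/Her2+ label, so the identity of the line is in question and BT-474 is used here only as the label. Levels below are CPM (counts scaled to a common library total after TMM normalisation), and fold changes are evexomostat over vehicle on the log2 scale from edgeR's quasi-likelihood fit of 16653 genes. Because the tumours were sequenced in bulk, fewer cells that express a gene and less of its RNA per cell cannot be told apart.

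NPR3 transcripts were less abundant in every evexomostat tumour than in every vehicle tumour. In the vehicle libraries NPR3 was at 34.1 CPM in replicate 001, 53.6 in 003, 39.8 in 004, 56.2 in 005, 35.9 in 006 and 41.4 in 007. In the evexomostat libraries it was at 24.4 CPM in replicate 002, 13.0 in 003, 15.0 in 004, 18.5 in 005 and 14.5 in 007. The highest treated tumour, 002, was still below the lowest vehicle tumour, 001. The group means were 43.5 ± 9.26 CPM (SD, n = 6) and 17.1 ± 4.57 CPM (SD, n = 5). The log2 fold change was -1.35 (SE 0.20), and the mean was 2.55 times higher under vehicle.

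GLP2R went the other way and from a much lower level. Vehicle libraries held 1.31 CPM in replicate 001, 1.08 in 003, 1.17 in 004, 0.619 in 005, 1.87 in 006 and 0.956 in 007, which are 23 to 60 counts per library. Evexomostat libraries held 5.18 CPM in replicate 002, 2.27 in 003, 3.73 in 004, 5.20 in 005 and 5.85 in 007, or 56 to 188 counts. No treated tumour came down to the vehicle range, and replicate 003 was the lowest of the treated tumours for both GLP2R and NPR3. Means were 1.17 ± 0.417 CPM (SD, n = 6) and 4.45 ± 1.44 CPM (SD, n = 5). The log2 fold change was 1.93 (SE 0.31), the treated mean being 3.80 times that of vehicle.

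**Figure D1:**
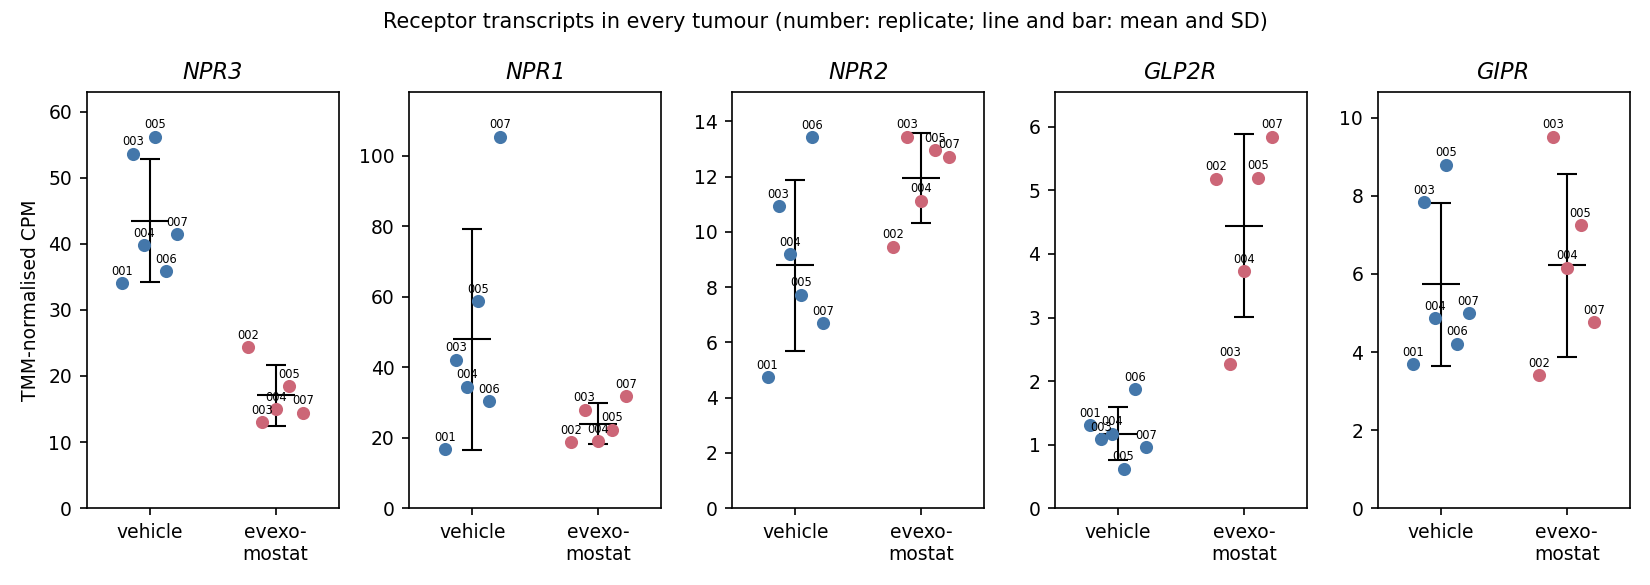
CPM (linear axes from 0, a separate scale for each gene) of the 5 genes that passed the count filter, by group. Each point is 1 tumour with its replicate number, and lines with bars are means with SDs. The groups separate for NPR3 (lower under evexomostat) and GLP2R (higher), and overlap for NPR1, NPR2 and GIPR.

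These are the values that chose the pair. In edgeR's quasi-likelihood test the adjusted p was 0.0138 for NPR3 and 0.0189 for GLP2R, places 10 and 22 among all tested genes ordered by p. Of the 8 genes, 5 passed the filter on low counts, and 2 of these were under an adjusted p of 0.05 and had groups that did not overlap. Over all 16653 tested genes, 0.606% were under that threshold (0.174% higher and 0.432% lower) and 2.97% did not overlap (1.33% higher and 1.64% lower). These shares are the background for the count and nothing is read from it, since the pair was chosen on this contrast. The last gene inside the threshold was SCD, with an adjusted p of 0.0494, and the first outside it was WDR18, with 0.05002 (edgeR). The authors' deposited table gives NPR3 a log2 fold change of -1.27 with an adjusted p of 4.20e-05, and GLP2R 2.01 with 4.35e-06, and the other 6 genes have adjusted p-values of 0.267 or more there, where 0.952% of all 28152 symbols are under 0.05.

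Both differences kept their direction under every other setting tried, but the calls were lost when some single treated libraries were left out. The total of genes called over the whole table also changed widely between such fits. Losing a call there is therefore not particular to this pair. Across 21 other settings NPR3 kept a negative log2 fold change between -1.66 and -1.22, and GLP2R a positive one between 1.36 and 2.14. NPR3 was over the threshold in 2 of these, without evexomostat replicate 005 (adjusted p 0.0558 in edgeR) and without 007 (0.0654). GLP2R was over it in 4: without evexomostat replicate 002 (adjusted p 0.0707 in edgeR), without 005 (0.0712), without 007 (0.0747), and with a replicate block on the 8 libraries whose numbers both groups share (0.0663). Without vehicle replicate 001 the log2 fold changes were -1.41 for NPR3 and 1.97 for GLP2R.

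**Figure D2:**
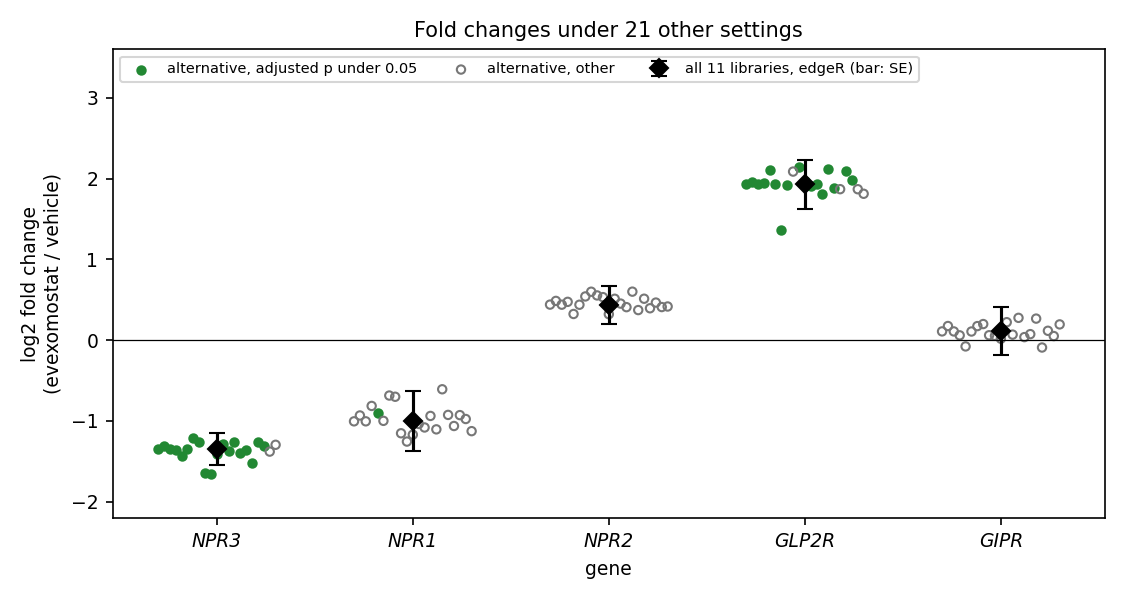
Log2 fold change (evexomostat over vehicle) of 5 genes. Diamonds with bars are the fit of all 11 libraries with its SE, and circles are 21 other settings, filled where the adjusted p was under 0.05. NPR3 stays below 0 and GLP2R above 0 throughout, between -1.66 and -1.22 and between 1.36 and 2.14.

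NPR1, the cyclase receptor of the atrial and B-type peptides, had a wide spread among vehicle tumours. It was at 16.8 CPM in vehicle replicate 001, 42.1 in 003, 34.5 in 004, 58.7 in 005, 30.3 in 006 and 105.4 in 007. The evexomostat libraries fell in a narrower band of 18.7 CPM in replicate 002, 27.9 in 003, 18.9 in 004, 22.3 in 005 and 31.9 in 007. All 5 treated tumours lay below the vehicle median of 38.3 CPM, but the groups overlapped: vehicle replicate 001 was the lowest of the 11 libraries, and vehicle replicate 006 also lay below evexomostat replicate 007. Means were 48.0 ± 31.4 CPM (SD, n = 6) and 23.9 ± 5.79 CPM (SD, n = 5). The estimate was a log2 fold change of -1.002 (SE 0.37) that moved to -0.61 without vehicle replicate 007 and to -1.17 without 001. The edgeR adjusted p was 0.257, and it was under 0.05 in 1 of the 21 other settings, limma-voom with sample quality weights (adjusted p 0.0467), a setting under which 6.36% of all tested genes passed.

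NPR2, the cyclase receptor of the C-type peptide, leaned upward under treatment. Vehicle libraries held 4.75 CPM in replicate 001, 10.9 in 003, 9.19 in 004, 7.73 in 005, 13.4 in 006 and 6.69 in 007. Evexomostat libraries held 9.47 CPM in replicate 002, 13.4 in 003, 11.1 in 004, 12.9 in 005 and 12.7 in 007. All 5 treated tumours were above the vehicle median of 8.46 CPM, yet vehicle replicate 006 was close to the highest of them. The log2 fold change was 0.44 (SE 0.24, adjusted p 0.453 in edgeR), and it was 0.32 without vehicle replicate 001. In the GENCODE annotation NPR2 is the only one of the 8 genes with an exon that overlaps another gene's: the opposite-strand gene SPAG8, which had at most 65 counts in a library. Whether the counting used strand is not given in the sources used here, so the reads of this overlap cannot be assigned.

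The ligands were close to absent. NPPB, which encodes the B-type peptide, had 0 to 5 counts per library, with sums of 13 counts over the vehicle and 13 over the evexomostat libraries. NPPC, which encodes the C-type peptide, had 0 to 8 counts per library, with 20 counts over the vehicle and 7 over the evexomostat libraries. Neither passed the count filter, and most libraries were at or under the limit of 3 counts, so no difference between the groups was detectable at this depth. NPPA, the gene of the atrial peptide, and OSTN, grouped here with the natriuretic ligands, were looked at after their values were seen. NPPA averaged 0.651 ± 0.144 CPM (SD, n = 6) under vehicle and 1.03 ± 0.342 CPM (SD, n = 5) under evexomostat, with an edgeR adjusted p of 0.313. OSTN had 0 counts in all libraries.

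Per kilobase of exon, the order of the 3 natriuretic receptors differed between the groups. In vehicle tumours NPR1 led with 9.59 ± 6.27 CPM per kb (SD, n = 6), then NPR3 with 4.41 ± 0.939 and NPR2 with 2.27 ± 0.803. In evexomostat tumours NPR1 was at 4.79 ± 1.16 CPM per kb (SD, n = 5), NPR2 at 3.09 ± 0.423 and NPR3 at 1.73 ± 0.463. NPR3 was above NPR2 in 6 of 6 vehicle tumours, whereas NPR2 was above NPR3 in 4 of 5 evexomostat tumours, all but replicate 002. This order rests on the exon lengths used, 9866 bases for NPR3 and 3865 for NPR2, which join the exons of all annotated transcripts. In CPM without division by length, NPR3 averaged 17.1 and NPR2 11.9 under evexomostat. NPR3 was also selected for its lower level under evexomostat. NPR1 was above NPR3 in 5 of 6 vehicle tumours, although the range of NPR1, 3.36 to 21.1 CPM per kb, covered that of NPR3, 3.45 to 5.70.

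As a share of the per-kilobase sum of these 3 receptors, NPR3 made up 15.5% to 42.9% in vehicle tumours (median 29.8%) and 12.7%, 13.2%, 18.5%, 19.4% and 28.5% in the evexomostat tumours. These ranges overlap, because vehicle replicate 007, with its high NPR1, had an NPR3 share of 15.5%. The share of NPR2 did not overlap: it was 6.41% to 26.4% in vehicle tumours (median 16.1%) and 28.3% to 35.2% in evexomostat tumours (median 33.5%). This separation is a description and partly follows from the choice of genes, because the sum contains NPR3, which was selected for its lower level under evexomostat. The summed level averaged 16.3 CPM per kb under vehicle and 9.61 under evexomostat, while the CPM of NPR2 itself overlapped between the groups. The share of NPR1 ranged from 41.8% to 78.0% and from 43.2% to 57.3%.

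**Figure D3:**
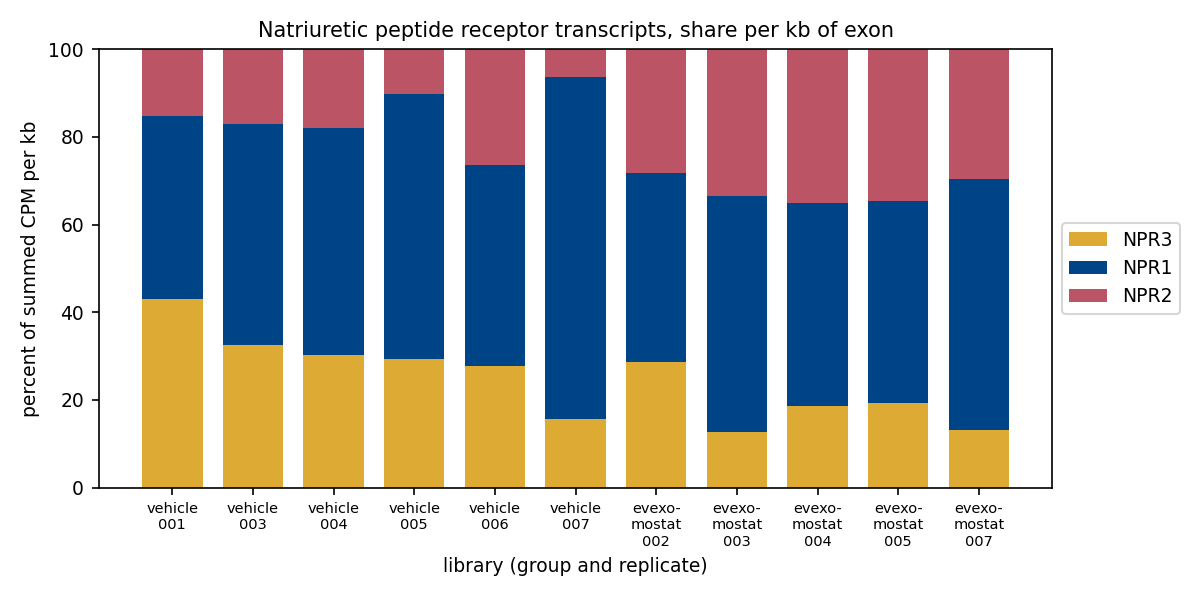
Stacked shares (percent, from 0 to 100) of NPR3, NPR1 and NPR2 in their summed CPM per kb of exon, 1 bar for each of the 11 tumours. The NPR2 segment is taller in every evexomostat bar (28.3% to 35.2%) than in any vehicle bar (at most 26.4%), while the NPR3 segments of the groups overlap.

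The other glucagon-family receptors did not follow GLP2R. GIPR, the receptor of the gut hormone GIP, was at 3.68 CPM in vehicle replicate 001, 7.84 in 003, 4.87 in 004, 8.80 in 005, 4.21 in 006 and 5.00 in 007. The evexomostat libraries held 3.41 CPM in replicate 002, 9.52 in 003, 6.16 in 004, 7.25 in 005 and 4.76 in 007. Treated tumours supplied both the lowest and the highest of the 11 values, and the log2 fold change was 0.11 (SE 0.30, adjusted p 0.917 in edgeR). GLP1R, the receptor of GLP-1, had 0 counts in 10 libraries and 1 count in evexomostat replicate 005. Per kilobase of exon GIPR stood above GLP2R in 6 of 6 vehicle tumours, at 1.21 ± 0.440 against 0.193 ± 0.0689 CPM per kb (SD, n = 6), and in 4 of 5 evexomostat tumours, at 1.31 ± 0.495 against 0.735 ± 0.238 (SD, n = 5).

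NPR3 and GLP2R were then compared within the vehicle group, where treatment plays no part. Vehicle replicate 005 had the highest NPR3 and the lowest GLP2R, and replicate 006 had the highest GLP2R with the second lowest NPR3. On log2 CPM, Pearson's r over the 6 vehicle tumours was -0.77 (exact permutation p 0.0583, two-sided) and Spearman's rho was -0.89 (exact permutation p 0.0333). This pair of genes is the only one whose relation was tested, with both coefficients and on RPM scales as well. Without the 2 tumours farthest from the NPR3 median, 003 and 005, r was -0.69. On log2(RPM + 0.1), which leaves out the TMM scaling, r was -0.53 (exact permutation p 0.240) and rho -0.60 (exact permutation p 0.242). The inverse order of these 6 tumours therefore depends on the scaling. In the evexomostat group the relation was not tested. There replicate 003 was lowest for both NPR3 and GLP2R (13.0 and 2.27 CPM). Replicate 007 had low NPR3 with the highest GLP2R (14.5 and 5.85 CPM), and replicate 002 the highest NPR3 with 5.18 CPM of GLP2R.

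**Figure D4:**
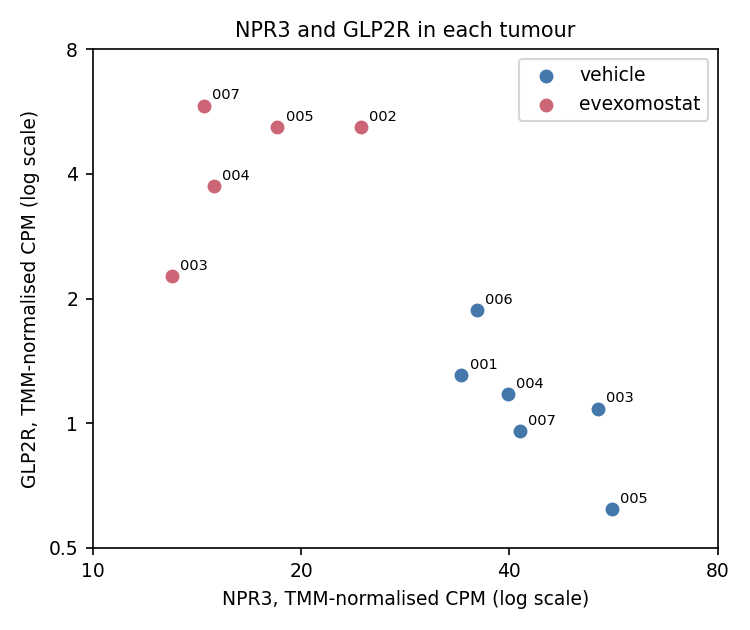
NPR3 against GLP2R in each tumour, both in CPM on log axes, with replicate numbers. The vehicle points (34.1 to 56.2 CPM of NPR3, 0.619 to 1.87 CPM of GLP2R) slope downward, and the evexomostat points form a separate group (13.0 to 24.4 and 2.27 to 5.85 CPM).

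The genes whose tumour-to-tumour pattern was most like each receptor were ranked by the Pearson correlation of log2 CPM over the 11 libraries after each group's mean was subtracted, as a description without a test. For NPR3 these were GNA13 (0.94), LCOR (0.93), PANK3 (0.93), CCNY (0.93) and ATXN2 (0.92), and their own edgeR adjusted p-values for treatment ran from 0.123 to 0.986. For GLP2R they were NDST1-AS1 (0.93), an antisense RNA whose reads may belong to its partner gene, ZNF551 (0.92), CCN2 (0.91), DMD (0.90) and SCARF2 (0.89), with edgeR adjusted p-values from 0.242 to 0.996. By the same measure NPR3 and GLP2R had a correlation of -0.08, and GLP2R and GIPR one of -0.74, which placed GIPR near the bottom, at 16601 of the tested genes ordered by likeness to GLP2R. All these genes share the 11 libraries, their depth and their scaling.

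The other genes of both pathways were taken as 109 genes in 7 lists, of which 81 passed the count filter. In edgeR's test 2 of the 81 passed an adjusted p of 0.05 (2.47%, against 0.606% of all tested genes), VGF higher and PDE4D lower, and the median log2 fold change was -0.12, against -0.04 over all tested genes. At an unadjusted p under 0.05 there were 18 of the 81 (22.2%), against 13.4% of all tested genes, and the unadjusted counts of the lists below are to be read against that share. VGF was known from earlier results of these libraries when its list was written. The count past the adjusted threshold was 7 without vehicle replicate 001, where 5.22% of all tested genes passed. It was 1 without vehicle replicate 005 or evexomostat replicate 003 or 004, and 0 without evexomostat replicate 002, 005 or 007. In the last of these fits 15, 17 and 15 of the 81 had an unadjusted p under 0.05. The share of all tested genes under that p in the same fits is not given, so nothing is read from these counts.

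Cyclic AMP carries the signal of GLP2R and GIPR. Of the 33 tested genes of cyclic AMP signalling, 0 rose and 1 fell, and the median log2 fold change was -0.07. At an unadjusted p under 0.05 there were 1 higher and 6 lower. The calls were 4 lower without vehicle replicate 001, 3 lower with DESeq2, 1 lower with limma-voom and 5 lower with quality weights, with 0 higher in each. Of all tested genes 5.22% passed without vehicle replicate 001, 3.9% with DESeq2 and 6.36% with quality weights, in either direction. No such share is given for limma-voom. The counts under these settings in the lists below are to be read against the same shares. The gene that fell, PDE4D, encodes a phosphodiesterase that breaks down cyclic AMP. Its level was 38.3 CPM in vehicle replicate 001, 37.9 in 003, 35.7 in 004, 52.9 in 005, 42.4 in 006 and 60.2 in 007, against 26.3 in evexomostat replicate 002, 27.2 in 003, 25.2 in 004, 21.3 in 005 and 21.6 in 007. The groups did not overlap, and the log2 fold change was -0.87 (SE 0.16, adjusted p 0.0313 in edgeR). It kept its sign in 21 of 21 other settings and was under the threshold in 12 of them. It was over it on both RPM scales, with the replicate block, without vehicle replicate 005 and without each of the 5 evexomostat replicates in turn. The most abundant genes of the list were GNAS, which encodes the stimulatory G protein, and GNAI2, which encodes an inhibitory one. Their log2 fold changes were 0.18 (SE 0.14, adjusted p 0.658 in edgeR) and -0.06 (SE 0.12, adjusted p 0.897). GNAI1 and GNAI3, the other inhibitory G protein genes of the list, were looked at after their values were seen. GNAI1 was at 36.1 to 66.1 CPM in vehicle and 23.2 to 33.1 CPM in evexomostat tumours. Its log2 fold change was -0.75 (SE 0.17, adjusted p 0.0714 in edgeR, or 0.0312 without vehicle replicate 001). GNAI3 was at -0.07 (SE 0.15, adjusted p 0.893 in edgeR).

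Among 11 tested genes known to be induced by cyclic AMP, 1 rose and 0 fell in edgeR's test, with 1 higher and 4 lower at an unadjusted p under 0.05. DESeq2 and limma-voom called VGF alone as well, and quality weights gave 1 higher and 2 lower. The gene that rose was VGF, a secreted neuropeptide precursor, at 0.662 to 4.46 CPM in the vehicle tumours (median 2.94) and 20.2 CPM in evexomostat replicate 002, 25.6 in 003, 19.6 in 004, 12.7 in 005 and 15.1 in 007. Its log2 fold change was 2.73 (SE 0.39, adjusted p 0.0138 in edgeR), and it was over the threshold without evexomostat replicate 002, 005 or 007. The list's median was -0.46, against -0.04 over all tested genes, and 2 of 11 estimates were above 0, against 44.6% of all tested genes. The 2 most abundant genes, DUSP1 and PER1, had log2 fold changes of -0.17 (SE 0.25) and -0.46 (SE 0.29), with edgeR adjusted p-values of 0.842 and 0.548.

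The cyclic GMP list holds guanylyl cyclases other than NPR1 and NPR2, protein kinase G and phosphodiesterases. In edgeR 0 of its 15 tested genes passed (1 at an unadjusted p under 0.05, lower). The count was 1 with DESeq2, under which 3.9% of all tested genes passed, 0 with limma-voom and 1 with quality weights. PDE10A and PDE6D, the most abundant of them, had log2 fold changes of -0.29 (SE 0.27, adjusted p 0.715 in edgeR) and 0.08 (SE 0.15, adjusted p 0.880). The gene at an unadjusted p under 0.05 was the guanylyl cyclase gene GUCY1A2, named after its values were seen. It was at 6.63 to 31.2 CPM in vehicle and 3.30 to 5.43 CPM in evexomostat tumours. Its log2 fold change was -1.57 (SE 0.40, adjusted p 0.0978 in edgeR, or 0.0337 without vehicle replicate 001). The authors' deposited comparison gives GUCY1A2 an adjusted p of 0.0223. Natriuretic ligands and the proteases that process or degrade them gave 0 of 6 in edgeR (1 at an unadjusted p under 0.05), and 0 with DESeq2, limma-voom and quality weights. MME, the neprilysin protease that degrades natriuretic peptides, was at 138.0 ± 44.8 CPM (SD, n = 6) and 100.2 ± 24.6 CPM (SD, n = 5), and its log2 fold change was -0.46 (SE 0.24, adjusted p 0.435 in edgeR). FURIN, a convertase that can cleave their precursors, was at 90.7 ± 25.8 and 96.1 ± 17.0 CPM, for a change of 0.08 on the log2 scale (SE 0.22, adjusted p 0.916 in edgeR), and its sign changed without vehicle replicate 001.

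On the glucagon side the ligands themselves were scarce. GCG, the precursor gene of glucagon, GLP-1 and GLP-2, had at most 5 counts in a library and GIP at most 3; these were singled out after their values were seen. Of the 3 tested genes in the list of ligands and processing enzymes, 0 passed in edgeR (2 at an unadjusted p under 0.05, both lower), against 1 with DESeq2, 0 with limma-voom and 1 with quality weights. DPP4, the protease that inactivates GLP-1 and GIP, was at 114.6 ± 62.6 CPM (SD, n = 6) and 68.1 ± 17.3 CPM (SD, n = 5), and its log2 fold change was -0.75 (SE 0.34, adjusted p 0.366 in edgeR). PCSK1, a prohormone convertase, was at 13.5 ± 6.57 and 7.16 ± 1.36 CPM, and its log2 fold change was -0.92 (SE 0.28, adjusted p 0.170 in edgeR), which was under the threshold at 0.0457 without vehicle replicate 001.

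Of the other class B receptors and their accessory proteins, 10 of 15 did not reach the count filter, and 0 of the 5 tested passed in edgeR, with 0 at an unadjusted p under 0.05 and 0 with DESeq2, limma-voom or quality weights. RAMP1, an accessory protein of these receptors, was at 37.1 ± 25.2 CPM (SD, n = 6) and 30.7 ± 9.89 CPM (SD, n = 5) (log2 fold change -0.27, with an opposite sign without vehicle replicate 001), and VIPR2, a receptor of vasoactive intestinal peptide, at 18.3 ± 3.24 and 20.6 ± 7.78 CPM. Growth factors and receptors that carry the effect of GLP-2 in the intestine gave 0 of 8 in edgeR (2 at an unadjusted p under 0.05, both lower), 0 with DESeq2 and limma-voom, and 1 with quality weights. EGFR and IGF1R, the most abundant, had log2 fold changes of -0.12 (SE 0.35) and -0.38 (SE 0.27), with edgeR adjusted p-values of 0.924 and 0.610, and EGFR was above 0 without vehicle replicate 003 or evexomostat replicate 003.

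**Figure D5:**
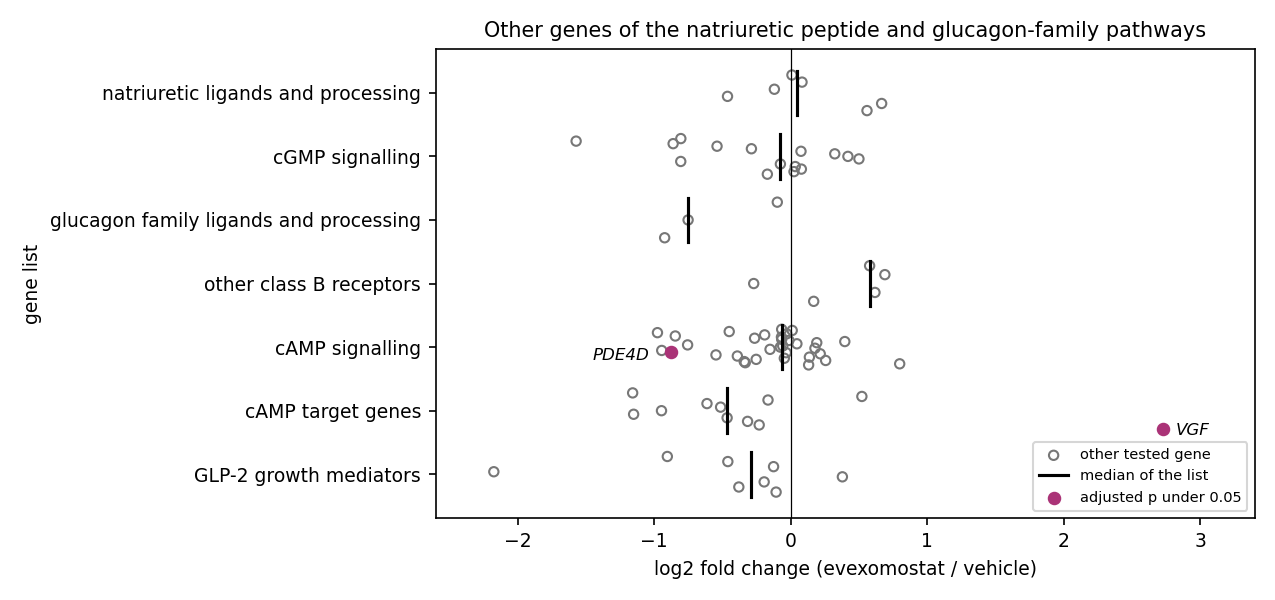
Log2 fold change (evexomostat over vehicle) of the 81 tested pathway genes in 7 lists, 1 circle per gene, with the list medians as vertical bars. The filled circles, PDE4D at -0.87 and VGF at 2.73, are the only genes under an adjusted p of 0.05 in edgeR's test of all 11 libraries.

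Markers of other cell types are given for the same libraries, since vessel and stromal cells also make NPR3 and NPR1. The 8 endothelial markers summed to 13.1 to 24.0 CPM in vehicle and 12.3 to 16.3 CPM in evexomostat tumours. In edgeR 0 of 6 tested markers passed (0 at an unadjusted p under 0.05 and 0 with DESeq2). CDH5 and EMCN, singled out after their values were seen, had at most 2 and 5 counts. Other markers of the list, also named after their values were seen, were more abundant. In the authors' deposited table PECAM1 averaged 5.49 RPM under vehicle and 4.38 under evexomostat, and KDR 4.97 and 6.29. The 8 fibroblast markers summed to 471.3 to 2178 CPM and 534.1 to 1138 CPM, and the 6 pericyte and smooth muscle markers to 47.0 to 100.7 and 80.3 to 102.3 CPM. Of the 6 pericyte and smooth muscle markers, 0 passed in edgeR (2 at an unadjusted p under 0.05, both higher), and 1 was called higher with DESeq2, with quality weights and in edgeR without vehicle replicate 001. CNN1, a smooth muscle calponin singled out after its values were seen, ranged from 0.377 to 3.25 CPM in vehicle and from 1.74 to 15.2 CPM in evexomostat tumours. Its log2 fold change was 2.83 (SE 0.62), with an edgeR adjusted p of 0.0665, or 0.0323 without vehicle replicate 001. The authors' deposited comparison gives CNN1 an adjusted p of 0.000281. The 7 adipocyte markers summed to 28.1 to 51.7 and 27.4 to 34.3 CPM, with ADIPOQ at 0 counts in all libraries, and the 7 myeloid markers to 76.0 to 116.7 and 83.7 to 96.0 CPM. Their part in the NPR3 difference was not tested.

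Beside GLP2R, the 6 neuroendocrine markers summed to 7.94 to 55.0 CPM in vehicle (median 14.9) and 21.9 to 34.9 CPM in evexomostat tumours (median 31.3). All 3 tested neuroendocrine markers had higher estimates under evexomostat (median log2 fold change 0.42), 1 of them at an unadjusted p under 0.05 in edgeR. The calls were 0 in edgeR and 0 with DESeq2. The 12 skeletal muscle markers summed to 3.84 to 23.0 CPM in vehicle and 5.40 to 509.7 CPM in evexomostat tumours, with the highest sum in evexomostat replicate 005. The evexomostat median of 26.9 CPM lay above the vehicle range, and the lowest evexomostat sum lay within it. All 9 tested muscle markers had higher estimates under evexomostat (median log2 fold change 3.31), 8 of them at an unadjusted p under 0.05. The calls were 0 in edgeR's quasi-likelihood test and 2 higher with DESeq2. In the authors' deposited comparison ACTA1, DES, TNNC2, CASQ1 and MYH4 had adjusted p-values from 0.00454 to 0.0277. The other muscle markers were over 0.05 there. The part of muscle or neuroendocrine content in the GLP2R difference was not tested. Without evexomostat replicate 005 the log2 fold change of GLP2R was 1.87 and no longer passed (adjusted p 0.0712 in edgeR). That of NPR3 was -1.38 (adjusted p 0.0558 in edgeR, also over the threshold). The estimates from all libraries were 1.93 for GLP2R and -1.35 for NPR3. Almost none of all tested genes passed without this replicate, so the lost calls are not particular to either receptor.

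The RefSeq promoter table (GRCh38.p14) matched 7 of the 8 genes, and the 250 bases before the annotated starts of NPR3 and GLP2R were searched on both strands for the cyclic AMP response element TGACGTCA, the AP-1 motif TGANTCA and the GC box GGGCGG. A match describes letters only. The GLP2R window held 1 GC box, which 42.6% of 35116 promoters hold, and it is shown because it was the only match in either gene; the capitals mark the GC box, whose first base lies 66 bases before the start, and the site is chr17:9825849-9825872 on the plus strand.
GLP2R upstream site: ggggggcagGGGCGGgggatgagc
Neither of the 2 NPR3 start windows held any of the 3 motifs, and the GLP2R window held no cyclic AMP response element (in 1.65% of promoters) and no AP-1 motif (in 6.57%). The NPR3 windows differ in base composition, one having 0 CpG dinucleotides and 45.6% G or C, the other 16 and 64.0%, and counts per gene do not separate transcripts from these starts.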

How the data were processed

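Per the submitters' processing notes, the tools named are bcl2fastq 2.17, STAR 2.7.5c, featureCounts, Subread and edgeR, with builds GRCh37 and hg19, without role or order. How strand and mouse reads were treated is not given in the sources used here. The authors deposited unnormalised read counts by symbol, and an RPM table that equals each count scaled by its column total (largest difference 9e-13). In their deposited comparison table, per the file headers, stand log2 fold changes, log2 CPM, p-values and group means. Columns were matched to samples by the code in the sample description.

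Genes were kept with filterByExpr (minimum count 10, minimum total 15), scaled with TMM and compared with edgeR 4.0.16 (R 4.3.3) by the quasi-likelihood F-test without covariates, Benjamini-Hochberg adjusted, at a threshold of 0.05. SEs are those implied by the F statistic. The log2 CPM values of the correlations used a prior count of 2. Alternatives were upper quartile and relative log expression scaling, DESeq2 1.42.0, limma 3.58.1 (voom, quality weights, and a trend fit to log2 RPM with pseudocounts of 1 and 0.1), no filter, a replicate block and leaving out each library. The tests were checked on simulated counts. Exon lengths are unions of GENCODE 29 exons.

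The 8 genes and the lists were chosen with earlier results of these data known. Named genes are the 8 genes, pathway genes past the threshold, the 2 most abundant tested genes of each list and the 5 genes most like NPR3 and GLP2R. Further genes were named after their values were seen, as stated where they appear. Each library is labelled as a separate tumour, and p-values measure the spread between these libraries.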

Additional observations from a re-analysis of the deposited data

How the results depend on the processing

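The total of 101 genes past the threshold (29 higher, 72 lower) became 649 with DESeq2, 1059 with limma-voom and sample quality weights, and 733 on the 8 libraries with shared replicate numbers and no replicate block, and it ranged from 1 to 865 when single libraries were left out (865 without vehicle replicate 001, 1 without evexomostat replicate 005). With the replicate block it was 107. Libraries that share a number had deviations from their group means correlated at -0.27, 0.07, 0.05 and -0.10. A shared number was not treated as a pairing, although correlations over all genes cannot exclude one. The 2 pathway genes became 6 with DESeq2, 11 with quality weights, 1 with log2(RPM + 1), 1 with log2(RPM + 0.1), 1 with the replicate block, 4 without the replicate block on the same 8 libraries, and 0 to 7 when single libraries were left out. The cause was not tested. The RPM settings moved the median of all genes from -0.04 to 0.08 and 0.10 on the log2 scale.

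The fold changes of the 5 tested receptors moved by less than the spread between tumours in 104 of 105 comparisons with other settings. The exception was GLP2R on log2(RPM + 1), at 1.36, a scale that understates low genes. The correlation of NPR3 with GLP2R stayed negative on both RPM scales, where the exact permutation p of Spearman's rho went from 0.0333 to 0.242 and no longer passed 0.05. Reading the pathway genes one by one under each setting was added after the data were seen, and 13 of 336 log2 fold changes changed sign, none past the threshold. FURIN was at -0.0193 with quality weights, -0.16 with the replicate block, -0.15 without the replicate block and -0.0587 without vehicle replicate 001, and from -0.0587 to 0.174 over the left-out libraries. RAMP1 was at 0.11 with quality weights, 0.0117 and 0.0166 on the RPM scales, 0.0574 with the replicate block and 0.123 without vehicle replicate 001, and from -0.430 to 0.123 over the left-out libraries. GNAI2 was at 0.0425 and 0.0426 on the RPM scales. EGFR was at 0.104 without vehicle replicate 003 and 0.0609 without evexomostat replicate 003, in a range from -0.376 to 0.104. At these depths NPPB, NPPC and GLP1R stay at the counting limit.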
